A study of Homo sapiens with 4 samples.

Results

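The miR-34 and miR-449 miRNAs form one family of small regulatory RNAs that share nearly the same seed, the stretch from base 2 to base 8 that pairs with target mRNAs. Their counts were followed through 4 small RNA libraries of RD, a long-established human cell line grown from an embryonal rhabdomyosarcoma, which is a tumour of the skeletal muscle lineage. The 8 members were chosen by name, hsa-miR-34a-5p, hsa-miR-34b-5p, hsa-miR-34b-3p, hsa-miR-34c-5p, hsa-miR-34c-3p, hsa-miR-449a, hsa-miR-449b-5p and hsa-miR-449c-5p (the species prefix is left out below), and all 8 were among the 2656 mature miRNAs listed. The libraries came from untreated cells: 1 represents the input lysate, and the other 3 are pull-downs made under native conditions with biotin-labelled antisense probes and streptavidin beads. The EVEN and ODD probes are 2 sets against exon 2 of HIPK3, the exon that makes up the circular RNA circHIPK3, and the LacZ probes target a bacterial mRNA and serve as control. Each group held 1 library and 1 biological replicate, so differences are between single libraries, without replicates to check them, and every interval covers counting error only. Exon 2 also belongs to the linear HIPK3 transcript, and how much circHIPK3 the probes recovered was not analysed here. All values are shares of the miRNA reads of a library, which move when other miRNAs take more or fewer reads and do not tell fewer cells with a miRNA from less of it per cell.

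miR-34a represses genes of the cell cycle and of survival, such as CDK6, MET and BCL2, as do miR-34b and miR-34c, which are made from one shared transcript. The miR-449 hairpins lie in an intron of CDC20B, a gene active in multiciliated cells, where miR-449 and miR-34b/c restrain Notch signalling and the cell cycle while cilia form. RD cells belong to a muscle lineage without motile cilia.

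The sequences show what the members share, and the order below follows their seeds. Mature sequences of 7 of the 8 members were found in RefSeq (GRCh38.p14), with bases 2 to 8 in capitals. The table had no entry for miR-34c-5p. The first group has the seed GGCAGUG and the second AGGCAGU, the same run placed 1 base later in the miRNA. The 3p arms come last and do not share these seeds.
miR-34a-5p: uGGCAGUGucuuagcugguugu
miR-449a: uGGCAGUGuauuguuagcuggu
miR-449b-5p: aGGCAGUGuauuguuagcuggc
miR-34b-5p: uAGGCAGUgucauuagcugauug
miR-449c-5p: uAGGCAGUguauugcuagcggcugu
miR-34b-3p: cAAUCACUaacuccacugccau
miR-34c-3p: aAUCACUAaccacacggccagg

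miR-449a and miR-449b-5p matched at 20 of 22 aligned bases, with the differences U1A and U22C (base of miR-449a, position from its 5′ end, base of miR-449b-5p). miR-449a and miR-449c-5p matched at 18 of 22 bases and miR-449a and miR-34a-5p at 15 of 22. No source used here says how reads that fit several miRNAs were assigned, so the split of reads between such close members, miR-449a and miR-449b-5p above all, is uncertain. One other miRNA of the RefSeq table carried either seed, miR-2682-5p, with AGGCAGU, and it had 0 reads in all 4 libraries.

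On GRCh38 the 3 miR-449 hairpins lie within 1822 bases of chromosome 5 on the minus strand. MIR449A is at chr5:55170532-55170622, MIR449B at chr5:55170646-55170742 and MIR449C at chr5:55172262-55172353. All 3 lie in intron 2 of the longest CDC20B transcript of GENCODE release 29, which is on the same strand, and overlap no exon of it. MIR34A is at chr1:9151668-9151777 on the minus strand and overlaps an exon of its host RNA MIR34AHG. MIR34B (chr11:111512938-111513021) and MIR34C (chr11:111513439-111513515) are neighbours on the plus strand, with no host gene around them in that annotation. The MIR449A hairpin, the source of most reads of the family, is printed with mature miR-449a in capitals.
MIR449A: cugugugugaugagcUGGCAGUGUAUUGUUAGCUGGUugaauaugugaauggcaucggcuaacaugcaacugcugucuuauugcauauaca

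Library totals were 2987858 miRNA reads for the input, 425395 for LacZ, 426450 for ODD and 98950 for EVEN, the shallowest. Levels are given in CPM, the reads of a miRNA scaled to a common library size, and a count of 0 allows up to 1.00 CPM in the input, 7.05 in LacZ, 7.03 in ODD and 30.3 in EVEN (3 counts). The muscle miRNAs expected of RD were present: miR-1-3p, miR-133a-3p, miR-133b and miR-206 summed to between 34970 CPM in ODD and 103780 CPM in EVEN, and miR-206 was the fourth most abundant miRNA of the input (rank 4). Of the 4 blood markers, miR-451a had 0 reads in all 4 libraries, and miR-144-3p had 1 read, in the input. In the input, LacZ, EVEN and ODD, miR-223-3p had 91, 16, 2 and 5 reads and miR-142-3p had 18, 9, 13 and 4 reads, with miR-142-3p highest in EVEN, at 131 CPM. The 4 summed to between 21.1 CPM in ODD and 151.6 CPM in EVEN.

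The family was close to absent from the circHIPK3 pull-downs and well represented in the LacZ control. Its summed reads were 505 in the input, 740 in LacZ, 3 in EVEN and 6 in ODD. As shares of all miRNA reads these are 0.0169% of the input (95% exact binomial interval 0.0155 to 0.0184), 0.174% of LacZ (0.162 to 0.187), 0.00303% of EVEN (0.000625 to 0.00886) and 0.00141% of ODD (0.000516 to 0.00306). The LacZ library stood above the input and both circHIPK3 libraries below it, with no overlap of the intervals between LacZ, input and the lower pair. Being below the input was not particular to the family. Of tested miRNAs (at least 20 reads in 1 of the 2 libraries), 52.2% in EVEN and 68.6% in ODD were at least 2-fold lower. Most reads of the family were of miR-449a. Without it, the EVEN interval (up to 0.00373%) and the ODD interval (5.68e-05% to 0.00169%) overlap that of the input (0.00101% to 0.00190%). At the share seen in LacZ, the EVEN library would have held 172 family reads and the ODD library 742. At the share seen in the input, it would have been 16.7 and 72.1.

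**Figure D1:**
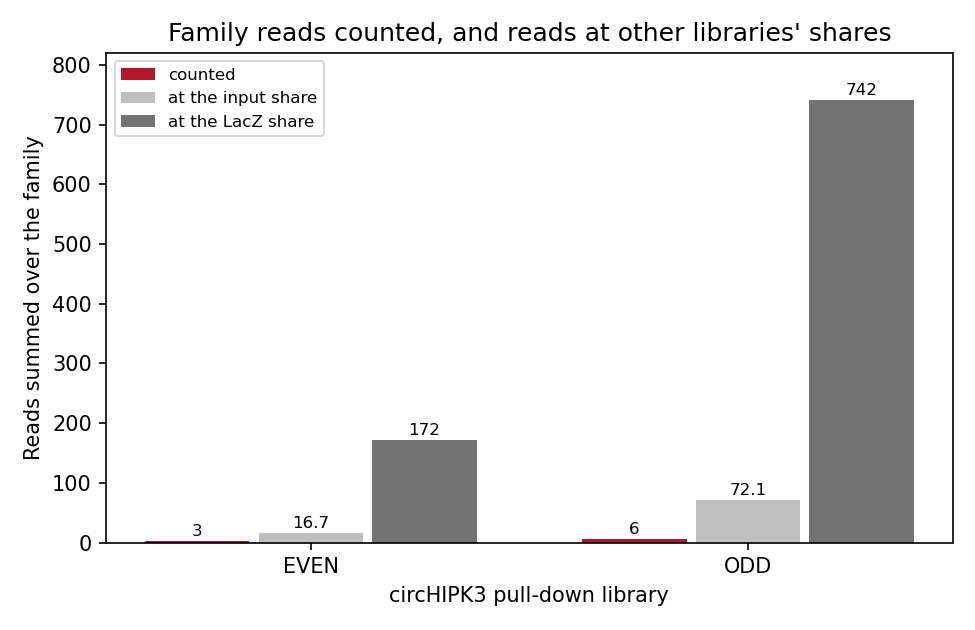
Reads summed over the family (vertical axis, linear from 0) in the EVEN and ODD libraries: the reads counted (red), and the reads each library would have held at the share of the input (light grey) or of LacZ (dark grey). The 3 and 6 counted reads lie below both reference values in both libraries.

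miR-449a, the arm with most reads, had 463 reads in the input, 670 in LacZ, 3 in EVEN and 4 in ODD. These are 154.96 CPM (141 to 170), 1575 CPM (1458 to 1699), 30.3 CPM (6.25 to 88.6) and 9.38 CPM (2.56 to 24.0). It was high in LacZ, intermediate in the input and low in both circHIPK3 libraries, whose intervals overlap each other but neither of the other 2. By abundance it ranked 181 in the input and 73 in LacZ.

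miR-449c-5p, processed from the hairpin at the far end of the same cluster, had 32 reads in the input, 44 in LacZ, 0 in EVEN and 1 in ODD. Its levels were 10.7 CPM (7.33 to 15.1) in the input, 103 CPM (75.2 to 139) in LacZ and 2.34 CPM (0.0594 to 13.1) in ODD, and the 0 in EVEN allows up to 30.3 CPM. LacZ was again highest. The EVEN limit lies above the input level, so EVEN and input could not be told apart at this depth, and the ODD and input intervals overlap.

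miR-34a-5p, which represses cell cycle genes, had 2 reads in the input, 22 in LacZ, 0 in EVEN and 1 in ODD. Its level was 0.669 CPM (0.0811 to 2.42) in the input and 51.7 CPM (32.4 to 78.3) in LacZ, with 2.34 CPM (0.0594 to 13.1) in ODD. LacZ was the only library with more than 2 reads, and the other 3 could not be ordered.

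miR-449b-5p had 6 reads in the input, 4 in LacZ and 0 in EVEN and ODD, and miR-34c-5p had 2 reads in the input and 0 in the pull-downs. miR-34b-5p, miR-34b-3p and miR-34c-3p had 0 reads in all 4 libraries, which allows up to 1.00 CPM each in the input. In all, 5 of the 8 members had a read in some library: 5 in the input, 4 in LacZ, 1 in EVEN and 3 in ODD. The other arms of these hairpins were as rare: miR-34a-3p and miR-449c-3p had 0 reads throughout and miR-449b-3p had 1 read, in the input.

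**Figure D2:**
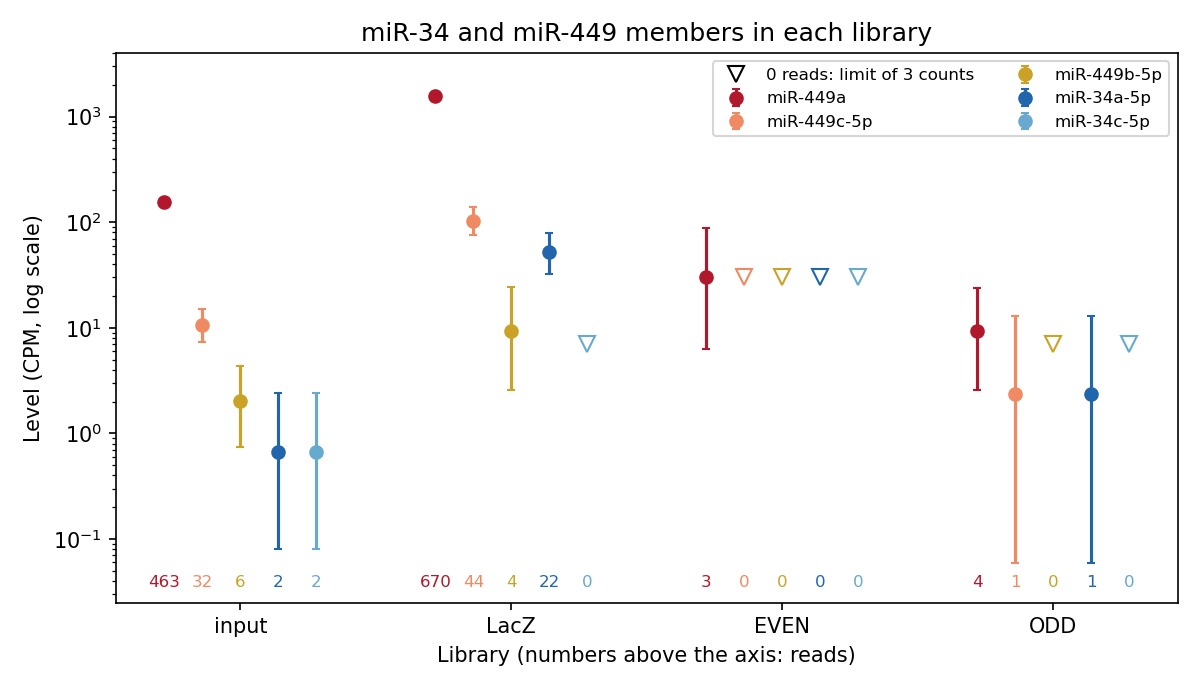
Level in CPM (log scale) of the 5 members with a read, in each library. Points are the measured levels with 95% exact binomial counting intervals, open triangles mark 0 reads at the 3-count limit, and the numbers above the axis are reads. miR-449a has the most reads of the family in every library, and LacZ holds the highest level of miR-449a, miR-449c-5p and miR-34a-5p.

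The LacZ probes have no target of their own in human cells, and the first comparison sets that control library beside the input. A miRNA was tested when either library held 20 reads or more of it, by the log2 ratio of read shares with 0.5 added to each count, and was called at 2-fold. Of the 8 members 3 could be tested, and all 3 were called higher in LacZ, where 18.1% of the 475 tested miRNAs were called higher and 34.3% lower. Over all tested miRNAs that split, 86 higher and 163 lower, was 63 and 246 under TMM scaling and 108 and 127 with totals that leave out the 10 most abundant miRNAs. miR-449a was 10.2-fold higher in LacZ (95% exact conditional counting interval 9.02 to 11.5), miR-449c-5p 9.66-fold (5.99 to 15.7) and miR-34a-5p 77.3-fold (19.0 to 678). Their log2 ratios were 3.34, 3.27 and 5.98, with a median of 3.34, against a median of -0.44 over all tested miRNAs. miR-34a-5p, with 2 input reads, was tested only through its LacZ reads, and could not have been tested had it been low in LacZ. miR-449b-5p, below the minimum, was 4.68-fold higher (0.972 to 19.7).

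Markers of epithelia in general, which include the airway epithelia that hold multiciliated cells, were also counted. Of these 7, 2 were called higher in LacZ than in the input and 1 lower. The 7 summed to 195 CPM in the input, 785 CPM in LacZ, 334 CPM in EVEN and 896 CPM in ODD. miR-205-5p, with 4, 208, 20 and 355 reads in these libraries, and miR-203a-3p, with 2, 61, 6 and 15 reads, were the 2 that were higher in LacZ. miR-200a-3p and miR-200b-3p had 0 reads in EVEN and ODD, miR-429 0 in EVEN and miR-141-3p 0 in ODD. miR-205-5p alone held 832 of the 896 CPM in ODD, and the other 6 summed to 194 CPM in the input, 296 CPM in LacZ, 131 CPM in EVEN and 63.3 CPM in ODD. Without miR-205-5p, a choice made after seeing the data, the summed epithelial markers were highest in LacZ, but miR-203a-3p held 143 of those 296 CPM. Most others were higher in the input than in LacZ: miR-200a-3p (56.2 against 49.4 CPM), miR-200b-3p (12.4 against 4.70) and miR-141-3p (65.6 against 40.0). So was miR-429 (28.8 against 21.2), while miR-200c-3p went the other way (30.1 against 37.6). For each of these the counting intervals of the 2 libraries overlap. The family was at 1740 CPM in LacZ, its highest, and 14.1 CPM in ODD. The part of epithelial RNA in the family's LacZ level was not tested.

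Ratios between members inside 1 library do not depend on how libraries are scaled. For each 100 reads of miR-449a there were 6.91 of miR-449c-5p in the input (4.67 to 9.89) and 6.57 in LacZ (4.73 to 8.91). The ratio of these values, LacZ over input, was 0.95 (95% conditional interval of the odds ratio 0.579 to 1.57). The proportion of these 2 members of the miR-449 cluster thus differed between LacZ and input by no more than that interval allows, while the level of each was 10.2-fold and 9.66-fold higher in LacZ. For miR-449b-5p, of the same cluster, the values were 1.30 (0.473 to 2.84) and 0.597 (0.162 to 1.54). Its LacZ over input was 0.461 (0.0951 to 1.96), from 6 input and 4 LacZ reads. For miR-34a-5p the values were 0.432 (0.0522 to 1.57) and 3.28 (2.04 to 5.01), and LacZ over input was 7.59 (1.85 to 66.9). miR-34a-5p, from another chromosome, thus took a larger part of the family in LacZ than in the input, at 2.97% against 0.396%, and miR-449a took 90.5% of family reads in LacZ and 91.7% in the input. The miR-34a-5p ratio rests on 2 input reads.

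The comparisons of the circHIPK3 probes with LacZ ask which miRNAs come with circHIPK3 beyond what control probes retain. With EVEN probes all 3 tested members were called lower, and 51.2% of the 289 tested miRNAs were called lower as well and 9.69% higher. The members had 3, 0 and 0 EVEN reads and passed the read minimum only through LacZ, the library where they were high, so the count of 3 was largely fixed by that minimum and supports nothing by itself. Over all tested miRNAs the split of 28 higher and 148 lower was 43 and 107 under median-of-ratios scaling. miR-449a was 51.9-fold lower (17.7 to 253). miR-449c-5p, at 0 reads, had a 3-count bound of 3.41-fold lower and an exact limit of 2.66-fold lower. For miR-34a-5p the 0 reads in EVEN give a 3-count bound of 1.71-fold lower and an exact limit of 1.27-fold lower. Neither reaches 2-fold, so its call comes from the 0.5 added to each count. The median log2 ratio of the 3, -4.37, is that of miR-449c-5p, so it rests on 0 EVEN reads and the 0.5 added. Over all tested miRNAs the median was -1.06. With 5 added to each count these values were -1.19 and -0.46. The selection through LacZ applies to the median of the 3 as well, so it supports nothing by itself. The miR-449a log2 ratio minus the overall median of -1.06 was -4.42.

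With ODD probes the 3 tested members were called lower, beside 70.3% of the 300 tested miRNAs, while 13% of these were called higher. Here too the members, at 4, 1 and 1 ODD reads, were tested only through their LacZ reads, and the count supports nothing by itself. The split over all tested miRNAs, 39 higher and 211 lower, depends on the scaling, with 66 and 103 under TMM and 68 and 96 under median-of-ratios scaling. miR-449a was 168-fold lower (65.3 to 618), the lowest log2 ratio of all 300, miR-449c-5p 44.1-fold lower (7.51 to 1781) and miR-34a-5p 22.1-fold lower (3.56 to 910). The median log2 ratio of the 3 was -4.89, the value of miR-449c-5p, against -1.79 over all tested miRNAs. Because of the selection through LacZ, that median supports nothing by itself. miR-449c-5p and miR-34a-5p each rest on 1 ODD read. Both comparisons use the same LacZ library, in which the 3 members stood 9.66-fold to 77.3-fold above the input, so the EVEN and ODD values are not independent of each other or of that difference.

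**Figure D3:**
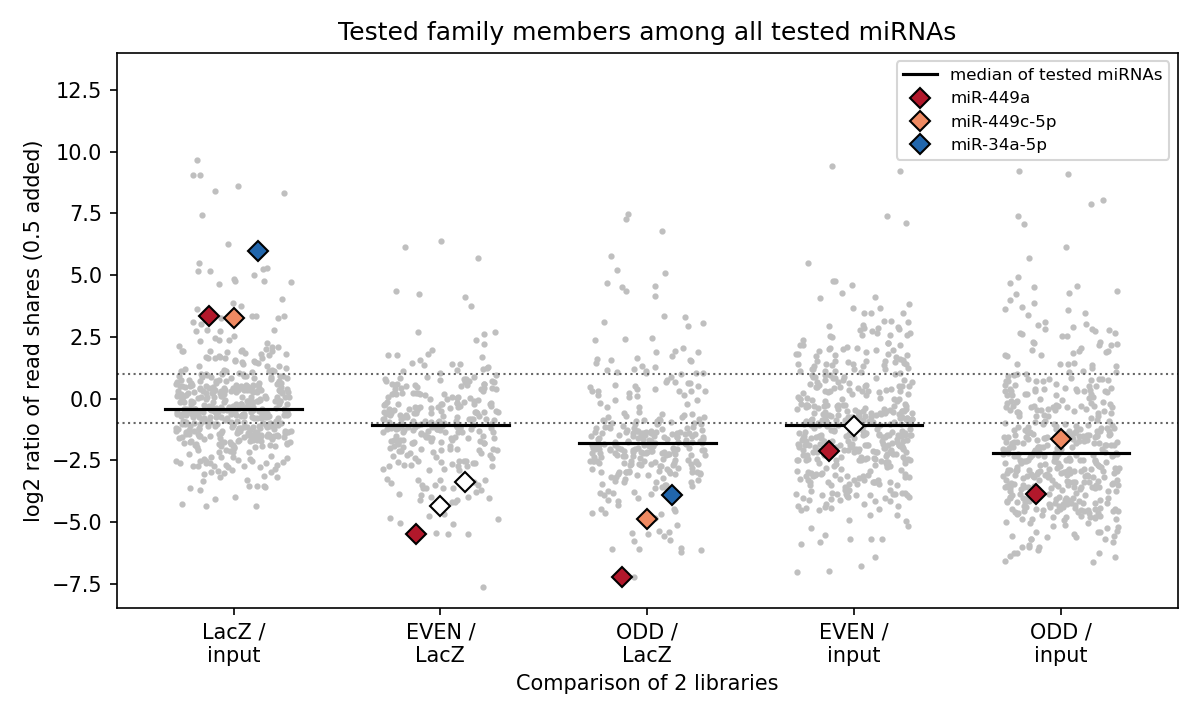
Log2 ratio of read shares (0.5 added to each count) of all tested miRNAs (grey points, spread sideways for sight) in 5 comparisons, with their median (black line) and the tested members (diamonds, from left to right miR-449a, miR-449c-5p and miR-34a-5p where tested, open where 1 library had 0 reads). Dotted lines mark 2-fold. The members lie above most miRNAs in LacZ against the input and near the bottom in ODD against LacZ, while miR-449c-5p lies near the median in both comparisons of a circHIPK3 library with the input.

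Against the input, which does not share the LacZ library, miR-449a took a share 5.11-fold below the input in EVEN (1.74 to 24.9) and 16.5-fold below it in ODD (6.41 to 60.9). Its log2 ratios were -2.13 and -3.88, and minus the medians of all tested miRNAs, -1.06 and -2.19, they were -1.07 and -1.68. Counted from the lowest ratio, miR-449a ranked 141 of 464 in EVEN and 101 of 468 in ODD, unlike its lowest rank in ODD against LacZ. Both tested members were called lower with each probe set, where 52.2% of 464 and 68.6% of 468 tested miRNAs were called lower and 18.3% and 13% higher. With totals that leave out the 10 most abundant miRNAs, the EVEN split over all tested miRNAs went from 85 higher and 242 lower to 123 and 176, and under median-of-ratios scaling the ODD split went from 61 and 321 to 108 and 237. Those shares are large enough that a call at 2-fold says little about the members themselves. miR-449c-5p had 0 and 1 reads, and its ODD value of 4.57-fold lower (0.763 to 186) has an interval that includes 1. Its EVEN call comes from the added constant, since 32 reads in the much deeper input leave no usable bound.

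The EVEN and ODD libraries could not be compared for any member, because none had 20 reads in either. Across the 203 miRNAs that could be, 37.9% were called higher with EVEN and 18.2% lower. This balance of 77 to 37 turned to 20 and 64 under TMM and to 19 and 64 under median-of-ratios scaling. miR-449a, at 3 and 4 reads, had a share 3.23-fold higher with EVEN probes, with an interval of 0.473 to 19.1 that includes 1.

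The miRNAs with the most similar pattern were found by the Euclidean distance over 3 log2 ratios (LacZ to input, EVEN to LacZ and ODD to LacZ) among 283 other miRNAs with at least 20 LacZ reads. miR-378a-5p was among the 3 nearest to both miR-449a (distance 2.26) and miR-449c-5p (0.58), with 959 reads in the input, 1382 in LacZ, 18 in EVEN and 32 in ODD. Its log2 ratio of LacZ to the input, 3.34, was equal to that of miR-449a to 2 decimals, and its ratios to LacZ were -4.12 with EVEN and -5.41 with ODD probes. Nearest to miR-449a were miR-653-3p (2.20) and miR-4440 (2.25), and none of its neighbours came closer than 2.20. Nearest to miR-34a-5p was miR-1307-3p (0.62), with 284 reads in the input, 1808 in LacZ, 34 in EVEN and 148 in ODD, then miR-1180-3p (1.37) and miR-409-5p (1.44). miR-627-3p (1.15) and miR-4745-3p (1.77) followed for miR-449c-5p. The distances cover 4 libraries, and those of miR-449c-5p and miR-34a-5p move with single reads. Those of miR-449a also rest on few reads, 3 in EVEN and 4 in ODD. Its neighbour miR-653-3p had 2 reads in each of these, and miR-4440 had 0 in each. With 35 LacZ reads, the miR-4440 ratios to LacZ are the lowest its depth allows.

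**Figure D4:**
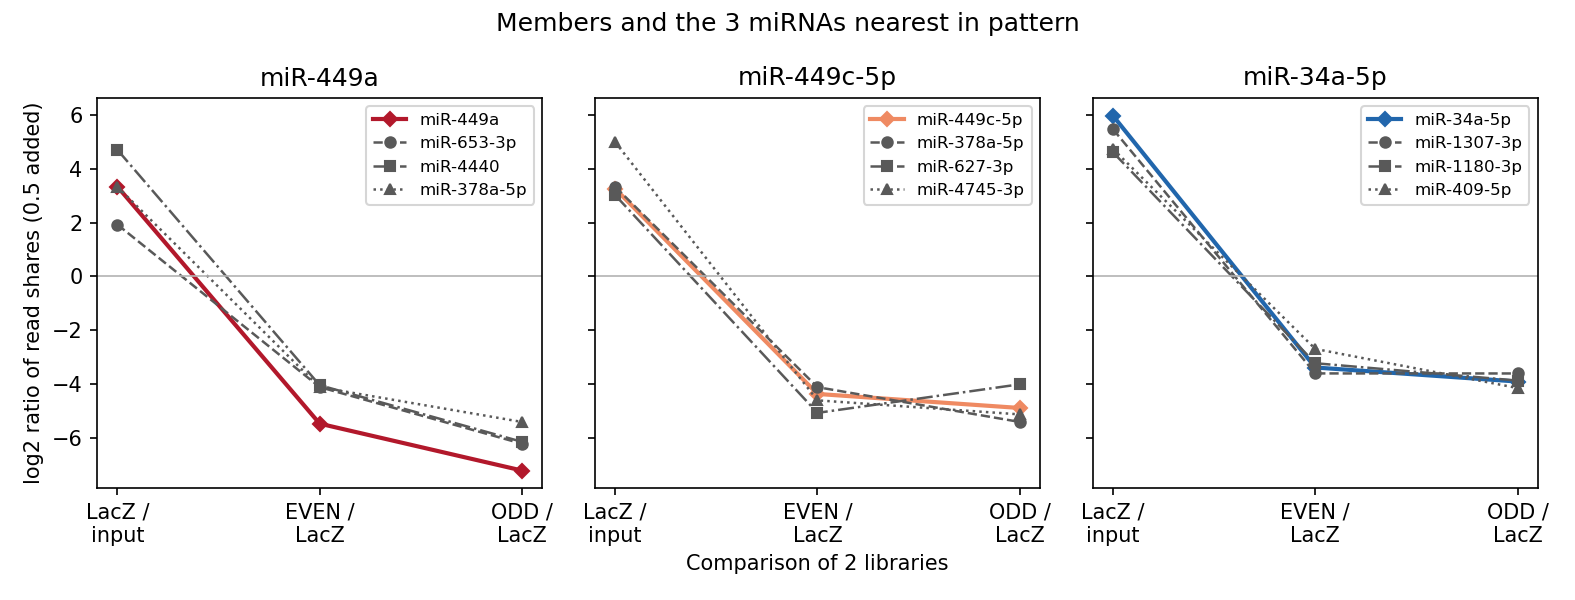
Log2 ratio of read shares (0.5 added) in 3 comparisons for miR-449a, miR-449c-5p and miR-34a-5p (coloured) and the 3 miRNAs nearest in pattern to each (grey). Lines only join the values of 1 miRNA. miR-449a, at 3 EVEN and 4 ODD reads, lies below its neighbours in both ratios to LacZ. The other 2 members lie among theirs in those ratios.

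Letters complementary to the seeds were looked for in HIPK3 exon 2 (chr11:33286413-33287511 on GRCh38, plus strand, 1099 bases, taken from the GENCODE transcript), read as a circle so that the junction was included. The complement of GGCAGUG is CACTGCC and that of AGGCAGU is ACTGCCT, and these 2 overlap by 6 letters, ACTGCC. The shorter complements of bases 2 to 7 are ACTGCC and CTGCCT. None of the 4 occurred in the circle on the sense strand, and none on the other strand. Among 4190 exons of protein-coding transcripts between 990 and 1208 bases long, some of which overlap, CACTGCC occurred on the sense strand in 15.6%, ACTGCCT in 11.3%, ACTGCC in 30.9% and CTGCCT in 52.03%. On the other strand the shares were 12.7%, 8.02%, 25.3% and 40.4%. Absence from this exon says only that these letters are not in it.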

How the data were processed

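Per the labels' protocols, lysate of RD cells went through pull-down with biotinylated probes, RNA was extracted with phenol and chloroform, and QIAseq miRNA libraries were sequenced single-end on a NovaSeq. The files the authors deposited hold raw counts for each mature miRNA and CPM, which equal each count over its library total. The submitters' processing notes name GRCh38. Not given in the sources used here are trimming, aligner, annotation, strand and how molecular identifiers and multiply fitting reads were treated. Without collapsed identifiers, the counting intervals are too narrow.

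Log2 ratios used (count + 0.5) over the library total, at least 20 reads in 1 of the 2 libraries, and a 2-fold call, with no test across replicates since each group had 1 library. Folds lack the 0.5 and carry 95% exact conditional intervals, or a bound at 3 counts against 0 reads. Library totals ran from 98950 to 2987858. Other scalings used TMM factors (edgeR 4.0.16) and median-of-ratios factors (DESeq2 1.42.0), under R 4.3.3. Other steps used Python 3.11.15, scipy 1.17.1 and pandas 2.3.3. Of these, the log2 ratios, read minimum and fold intervals were tested on simulated counts, for EVEN and ODD against LacZ only. The members and lists (other arms, muscle, epithelial, blood) were chosen with earlier results of these data known. Named beside them, by rule, were miRNAs sharing a 5p seed and the 3 nearest in pattern to each member with 20 LacZ reads. One further planned list is not reported here.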

Additional observations from a re-analysis of the deposited data

How the results depend on the processing

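No paired analysis was possible because each group has 1 library. All 3 members called higher in LacZ than in the input, and lower with EVEN or ODD probes than in LacZ, kept their direction under the other scalings, added constants and CPM. A minimum of 100 reads left 1 call, miR-449a, in each of the 5 comparisons that could be made. With 5 added to each count, miR-34a-5p had a log2 ratio of -0.33 for EVEN against LacZ and lost its call. With TMM factors the median over all tested miRNAs went from -0.44 to -1.04 for LacZ against the input and from -1.79 to -0.50 for ODD against LacZ. The miR-449a ratios became 2.74 and -5.93.

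Against the input miR-449a stayed called, except in EVEN with 5 added (-0.95). The 2 calls lower with EVEN probes became 1 with median-of-ratios factors, without the 10 most abundant miRNAs, at 4-fold, or where the interval had to exclude 1, and 0 with 5 added. The 2 with ODD probes became 1 under those 4 settings, TMM factors and 5 added. Adding 5 turned miR-449c-5p to 2.03 (EVEN) and 0.18 (ODD), and put 1 member higher in EVEN. That constant weighs more in shallower libraries. At a minimum of 1 read, 3 members were called higher in EVEN and 1 in ODD than in the input, against 0 in each before. The 3 in EVEN (miR-34a-5p, miR-34c-5p and miR-449b-5p) had 0 EVEN reads, so those calls come from the 0.5 added. The ODD call rests on 1 read of miR-34a-5p. At that minimum 1 member, miR-449a, was also called higher in EVEN than in ODD, at 3 and 4 reads, against 0 before. Without miR-449a, which holds most family reads, the family's share was 0.00141% in the input, 0.0165% in LacZ, 0% in EVEN and 0.000469% in ODD. The EVEN interval then reached 0.00373%, above the input share. The ODD interval (5.68e-05% to 0.00169%) overlapped that of the input (0.00101% to 0.00190%). The lower family share of both circHIPK3 libraries against the input thus rests on miR-449a. Composition from CPM is the same by construction, since CPM are counts over the library total, and checks nothing.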
